A study of Mus musculus with 9 samples.

Results

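The circadian clock genes examined here were Arntl (also called Bmal1), Clock, Npas2, Per1, Per2, Per3, Cry1, Nr1d1, Dbp and Tef, 10 of the 39179 genes counted in each library. They were chosen by name, by matching the Ensembl identifiers of the count tables to GRCm38 gene symbols, and all 10 were found. RNA came from single capillaries with the cells around them, cut by laser microdissection from the ossification front (OF), the zone under the growth plate where bone forms, of femurs of Tg(TIE2GFP)287Sato/J mice on a C57BL/6 background. These mice carry green fluorescent protein under the endothelial Tie2 promoter, so both ages share the reporter, and the labels name no treatment. Juvenile mice were 4 weeks old (n = 5) and adult mice 12 weeks old (n = 4), with each library taken as 1 mouse. The paper pooled both genders in its experiments, while reads of a Y-linked gene pointed to males among the juvenile libraries only. The mice were housed in a 12 h light and 12 h dark cycle. The hour at which each mouse was killed is not given in the sources used here.

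The molecular clock is a feedback loop of transcription that takes about a day. ARNTL pairs with CLOCK, or with its relative NPAS2, and switches on genes that carry the E-box sequence CACGTG. Among these genes are the Period and Cryptochrome repressors, which then block ARNTL and CLOCK, and Nr1d1, whose product represses Arntl through ROR response elements. The PAR bZIP factors DBP and TEF carry the rhythm to output genes through D-box elements. In most tissues of the mouse, bone included, Arntl transcripts peak at a time of day when Dbp, Per and Nr1d1 transcripts are low, so the level of 1 clock gene in 1 animal depends on when it was taken. The clock genes were therefore read as a set, member by member, to see whether the ages differed and whether the members known to peak at opposite times lay on opposite sides.

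The motifs through which the loop acts were searched in RefSeq promoter windows of build GRCm38.p6, each from 250 bases before to 50 bases after a start site. Windows were given for 9 of the 10 clock genes, 14 windows in all, and not for Per2. The motifs were the E-box CACGTG, its variant CACGTT, the D-box TTANGTAA and the ROR response element, each on both strands. CACGTG was found in 4 of the 14 windows, of Cry1, Per1 and both start sites of Tef, against 7.15% of 32851 mouse promoter windows. CACGTT was found in the windows of Cry1 and Nr1d1, against 4.68% of all windows. TTANGTAA was found only in the window of Per3 among the clock genes, at 2 places, against 2.32% of all windows. The ROR response element was found in 1 window of Arntl, against 0.384% of all windows. The matches do not overlap each other, and a match is a run of letters and not a measured binding site. The stretches below carry these motifs, from 5′ to 3′ on the strand of the gene, with the motif in capitals (AACGTG is CACGTT read from the other strand), and are shown because each links a measured gene to the factor that is known to act through such a sequence.
Cry1, chr10:85185082-85185141, minus strand, E-box, outside annotated genes: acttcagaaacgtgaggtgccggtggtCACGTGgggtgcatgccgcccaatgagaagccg
Per1, chr11:69098756-69098815, plus strand, E-box, in an intron of longer Per1 transcripts: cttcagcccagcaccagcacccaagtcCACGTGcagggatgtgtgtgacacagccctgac
Tef, chr15:81802534-81802563, plus strand, E-box, in an annotated exon of Tef: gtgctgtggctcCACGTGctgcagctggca
Tef, chr15:81811249-81811308, plus strand, E-box before the other start site, in an intron of Tef: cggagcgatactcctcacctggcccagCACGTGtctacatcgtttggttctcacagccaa
Nr1d1, chr11:98775378-98775437, minus strand, E-box variant, outside annotated genes: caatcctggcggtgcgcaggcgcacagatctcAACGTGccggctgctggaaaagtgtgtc
Per3, chr4:151044837-151044896, minus strand, the distal D-box, in an intron of Camta1: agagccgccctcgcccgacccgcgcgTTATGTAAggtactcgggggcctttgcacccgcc
Per3, chr4:151044790-151044849, minus strand, the proximal D-box, in an intron of Camta1: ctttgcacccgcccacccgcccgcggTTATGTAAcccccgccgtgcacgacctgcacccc
Arntl, chr7:113207527-113207556, plus strand, ROR response element after the start site, in an exon of Arntl: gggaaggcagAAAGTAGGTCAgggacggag

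Library totals ranged from 4856833 to 8077362 counts, and 3 counts correspond to 0.371 to 0.618 CPM, counts scaled to the library total, a limit that covers counting error only. Normalized counts below are counts divided by the relative effective size of the library, and a log2 fold change above 0 means more in juvenile mice. The quasi-likelihood test of edgeR was run on 13418 genes with Benjamini-Hochberg adjustment, and a gene was called at an adjusted p under 0.05. Of these genes, 520 (3.88%) were called, 267 (1.99%) with more counts in juvenile mice and 253 (1.89%) with more in adult mice. Leaving out juvenile replicate 2, 3, 4 or 5 lowered the number called to 332, 293, 275 and 262. Juvenile replicates 4 and 5 had 524 and 439 counts of the Y-linked Ddx3y and almost no Xist, and the other 7 libraries had at least 2965 counts of Xist. All 4 adult libraries were among these 7, with at most 1 count of Ddx3y, so sex was not balanced between the ages. Adult replicate 2 stood apart from the other adult libraries in its markers, with 93.0 summed CPM of 8 neutrophil markers against 3482 to 4324 and with 4682 summed CPM of 8 chondrocyte markers against 596 to 1045. All 10 endothelial and all 10 osteoblast markers were detected. Because the cut pieces held a mixture, fewer cells of a type and less RNA per cell cannot be told apart.

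None of the clock genes was called between the ages. Npas2 did not pass the filter on low counts, and 0 of the 9 clock genes tested had an adjusted p under 0.05 in edgeR, beside 3.88% of all genes tested. At an unadjusted p under 0.05 there were 2 (Cry1 and Tef), beside 17.3% of all genes tested. The value ranges of the 2 ages were apart for the same 2 genes, beside 9.15% of all genes tested. DESeq2, the tool the study used, called 1 of them (Tef), beside 9.47% of its tested genes. The fold changes of the 9 ran from -0.69 to 1.23 on the log2 scale, with 3 above 0 and 6 below. Their median was -0.34, beside -0.01 over all genes tested.

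**Figure D1:**
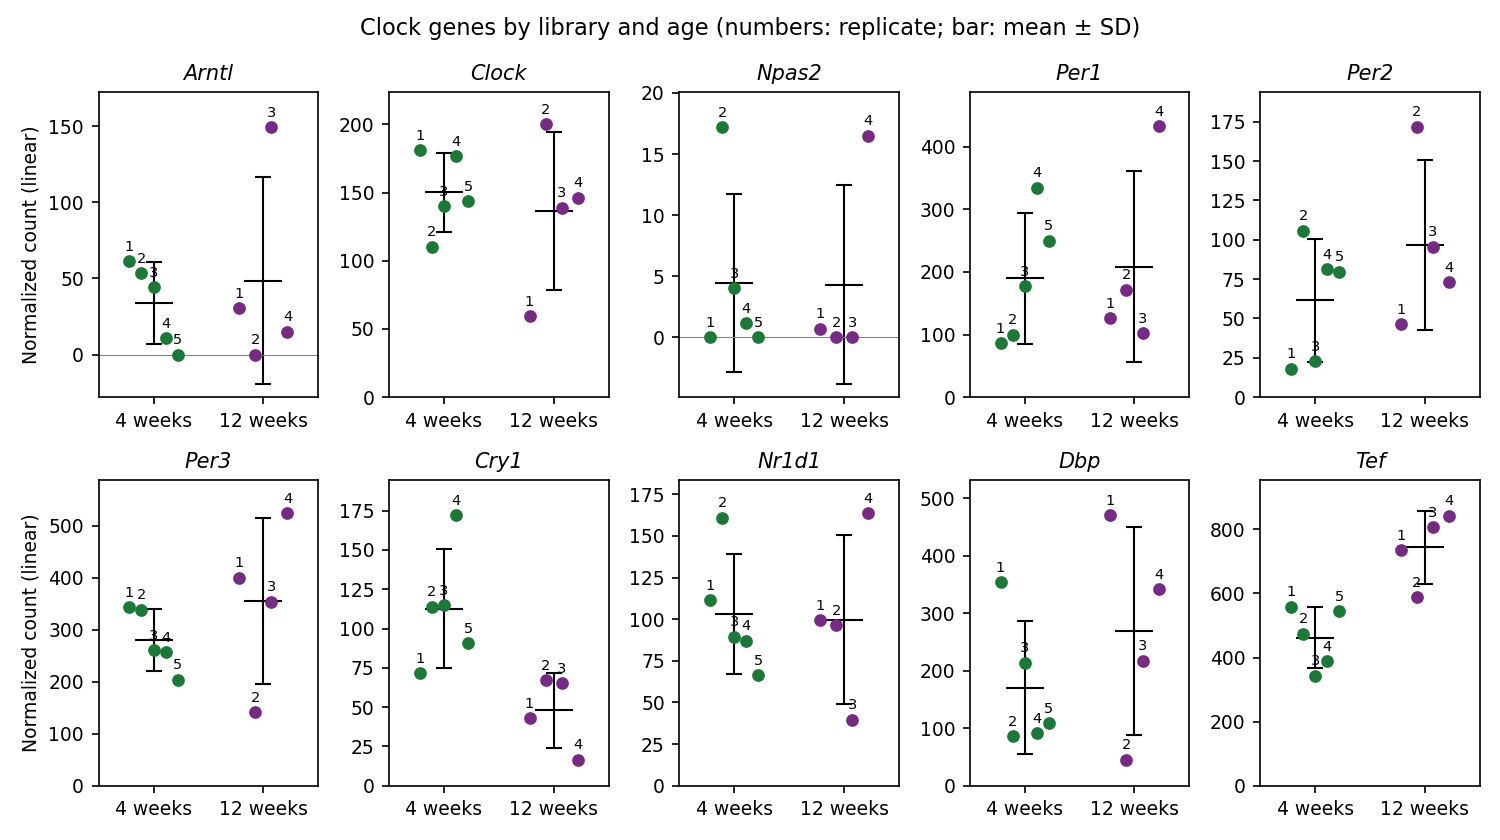
Normalized counts of the 10 clock genes (vertical axes, linear scale) in juvenile (4 weeks, green) and adult (12 weeks, purple) libraries; each point is 1 library with its replicate number, and bars give the mean ± SD. The ages overlap in every panel except Cry1, where all 5 juvenile libraries lie above the adult ones, and Tef, where all 5 lie below.

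The activators of the loop gave no called difference. Arntl, whose product is the obligate partner in the activating pair, had normalized counts of 61.4, 53.3, 44.1, 10.6 and 0 in juvenile replicates 1 to 5. In adult replicates 1 to 4 it had 30.5, 0, 149 and 14.9. Both ages held a library in which no read was counted on Arntl, juvenile replicate 5 and adult replicate 2, and the highest value was that of adult replicate 3. A count of 0 allows up to 0.600 CPM in juvenile replicate 5 and 0.515 CPM in adult replicate 2. Juvenile mice had a mean of 33.9 ± 27.1 (SD, n = 5) and adult mice one of 48.6 ± 68.1 (SD, n = 4). This gave a log2 fold change of -0.52 ± 1.31 (SE), with a 95% interval from -3.35 to 2.31 and an adjusted p of 0.907 in edgeR. Without adult replicate 3 it was 1.13 (adjusted p = 0.797), so 1 library set its sign. The interval spans changes of several fold in either direction, so smaller differences in Arntl were not detectable in these libraries.

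Clock encodes the partner of ARNTL. It was counted in every library, with 181, 110, 140, 177 and 144 normalized counts in the juvenile mice. The adult mice had 59.5, 200.2, 139 and 146. Adult replicate 1 was the lowest and adult replicate 2 the highest of the 9, and the juvenile values lay between them. Juvenile libraries averaged 150.4 ± 29.1 (SD, n = 5) and adult ones 136 ± 58.0 (SD, n = 4), with a log2 fold change of 0.14 ± 0.40 (SE), a 95% interval from -0.72 to 1.003 and an adjusted p of 0.918 in edgeR. Without adult replicate 1 it was -0.12. Npas2, which can stand in for Clock, had counts of 0, 19, 3, 1 and 0 in the juvenile libraries. The adult libraries had 1, 0, 0 and 21. Nearly all of its reads came from juvenile replicate 2 and adult replicate 4, 40 of 45, and 4 of the 9 libraries had none.

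The Period genes encode repressors that bind the Cryptochromes. Per1 had 86.5, 99.5, 178, 335 and 250.1 normalized counts in the juvenile mice. Adult values were 126, 172, 103 and 432. The highest library was 3.87 times the lowest in juvenile and 4.22 times in adult mice, replicate 4 in both, and the ages overlapped over most of their ranges. Its log2 fold change was -0.14 ± 0.51 (SE), with a 95% interval from -1.23 to 0.96 and an adjusted p of 0.942 in edgeR, and the sign turned without juvenile replicate 1 (0.05), juvenile replicate 2 (0.03) or adult replicate 4 (0.49). Per2 had 18.2, 106, 22.7, 81.3 and 79.8 normalized counts in the juvenile mice. It had 46.4, 172, 95.5 and 73.1 in the adult mice. Juvenile replicates 1 and 3 were below every adult library, and the other juvenile libraries lay within the adult range. Per2 had a log2 fold change of -0.65 ± 0.64 (SE), with a 95% interval from -2.04 to 0.75 (adjusted p = 0.701 in edgeR), and it was -0.24 without adult replicate 2 (adjusted p = 0.913) and -0.41 without juvenile replicate 1 (adjusted p = 0.839).

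Per3, the member of the family with the D-boxes printed above, had the most counts of the Period genes in 6 of the 9 libraries. Its juvenile values were 344, 338, 260.5, 257 and 204. Its adult values were 400, 142, 354 and 524. Adult replicate 2 was the lowest of all libraries and the other adult libraries were above every juvenile one. The log2 fold change was -0.34 ± 0.34 (SE), with a 95% interval from -1.07 to 0.39 (adjusted p = 0.700 in edgeR), and it was -0.62 without adult replicate 2 (adjusted p = 0.229) and -0.11 without adult replicate 4 (adjusted p = 0.936).

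Cry1, the Cryptochrome repressor whose window holds both an E-box and the variant, was the clock gene with the largest fold change. Normalized counts were 71.7, 114, 115, 172 and 90.5 in the juvenile mice. They were 42.8, 67.1, 65.2 and 16.5 in the adult mice. Every juvenile library was above every adult one, by a narrow margin between juvenile replicate 1 and adult replicate 2, and adult replicate 4 was the lowest. Juvenile libraries averaged 113 ± 37.7 (SD, n = 5) against 47.9 ± 23.7 (SD, n = 4) in the adult ones. Its log2 fold change was 1.23 ± 0.55 (SE), a 2.35-fold higher level in juvenile mice, with a 95% interval from 0.05 to 2.42. The unadjusted p was 0.0428 and the adjusted p 0.264 in edgeR, so Cry1 did not pass the test over all genes. A two-sided exact permutation test of Cry1 alone, over the 126 ways to divide the libraries, gave p = 0.0159, the smallest it can give, and it was run for all 10 genes. Any gene whose ages do not overlap gets this value. It thus restates the lack of overlap, which 9.15% of all genes tested shared. The fold change stayed between 0.93 and 1.46 under all 19 alternatives, without a call. It was 1.07 without juvenile replicates 4 and 5 (adjusted p = 0.657) and 1.41 without adult replicate 2 (adjusted p = 0.226).

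Nr1d1 encodes REV-ERBα, the repressor of Arntl. It had 112, 161, 89.5, 87.2 and 66.5 normalized counts in the juvenile mice. In the adult mice it had 99.4, 96.4, 39.6 and 164. The juvenile values lay within the adult range, between adult replicates 3 and 4. For Nr1d1 the log2 fold change was 0.05 ± 0.49 (SE), with a 95% interval from -1.01 to 1.11 and an adjusted p of 0.981 in edgeR, and it turned to -0.17 without juvenile replicate 2 and to -0.23 without adult replicate 3. In the annotation 8.55% of the exons of Nr1d1 lie opposite Thra, the thyroid hormone receptor gene, and the library kit does not mark strand, so reads of the shared stretch cannot be told apart. Thra itself had a log2 fold change of -0.26 ± 0.23 (SE, adjusted p = 0.659 in edgeR).

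**Figure D2:**
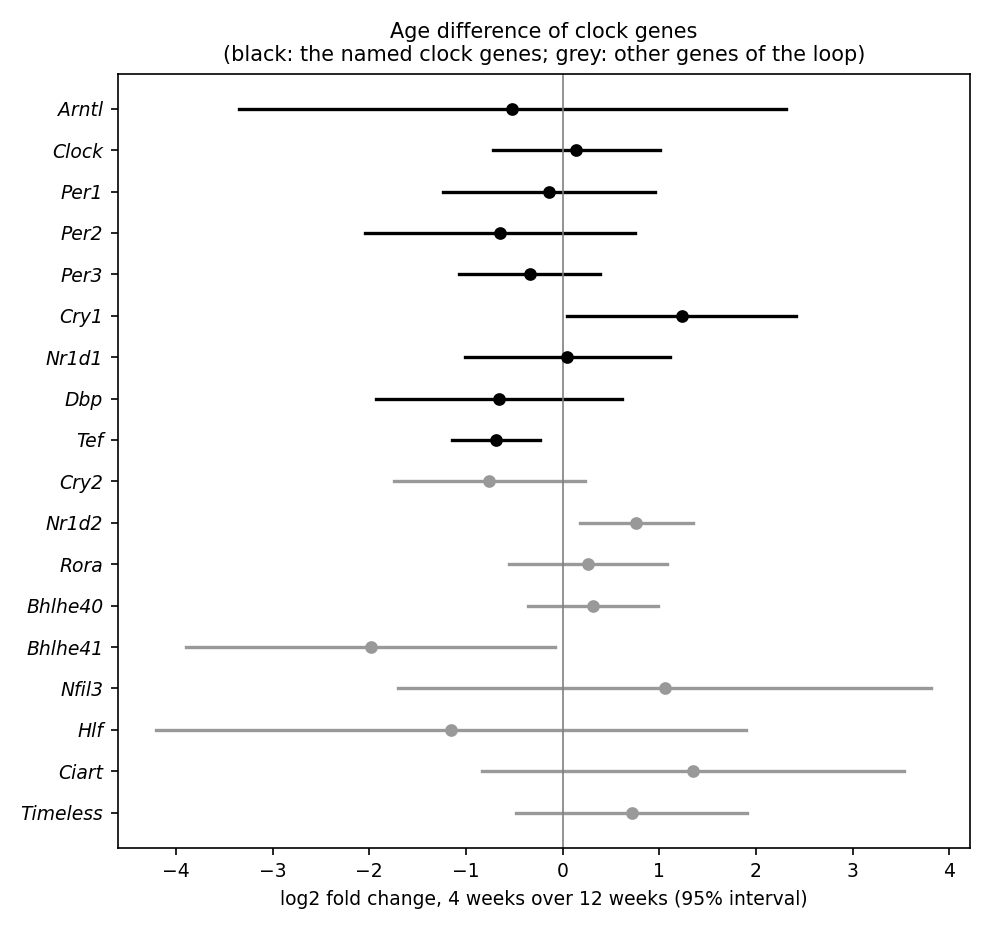
Log2 fold change of juvenile over adult mice (horizontal axis) for the 9 clock genes tested (black) and the 9 other genes of the loop tested (grey); points are edgeR estimates and lines 95% intervals. The intervals of Cry1, Tef, Nr1d2 and Bhlhe41 leave out 0, and none of these genes passed the adjustment over all genes.

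The outputs Dbp and Tef, which encode related D-box activators, both had higher mean counts in adult mice, and only Tef did so without overlap. Dbp had 354, 85.9, 214, 90.7 and 109 normalized counts in the juvenile mice. It had 470.1, 45.1, 217 and 342 in the adult mice. Adult replicate 2 was lowest and adult replicate 1 highest, 10.4 times apart, and all juvenile values lay between them. The log2 fold change was -0.66 ± 0.59 (SE), with a 95% interval from -1.93 to 0.61 (adjusted p = 0.655 in edgeR), and it was -1.03 without adult replicate 2 (adjusted p = 0.281), -1.11 without juvenile replicate 1 (adjusted p = 0.405) and -0.26 without adult replicate 1 (adjusted p = 0.897). Of the exons of Dbp, 18.01% lie opposite Sphk2, the sphingosine kinase 2 gene, whose own log2 fold change was -0.12 ± 0.32 (SE, adjusted p = 0.908 in edgeR).

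Tef had 559, 474, 343, 388 and 545 normalized counts in the juvenile mice. It had 736, 588, 808 and 843 in the adult mice. Every adult library was above every juvenile one, with adult replicate 2 nearest to the juvenile range. Averages were 462 ± 94.96 (SD, n = 5) for juvenile against 744 ± 113 (SD, n = 4) for adult libraries. Tef thus had a log2 fold change of -0.69 ± 0.21 (SE), 1.61-fold in favour of the adult mice, with a 95% interval from -1.14 to -0.24. The unadjusted p was 0.00594 and the adjusted p 0.0913 in edgeR, which missed the threshold, and DESeq2 gave an adjusted p of 0.0173. Over the 18 other alternatives, leaving out each library included, the adjusted p was not below 0.0591. Without juvenile replicates 4 and 5 the log2 fold change was -0.69 (adjusted p = 0.292), and without adult replicate 2 it was -0.80 (adjusted p = 0.0591). Of the exons of Tef, 2.45% lie opposite Gm17597, an antisense gene with reads in 2 juvenile libraries and 1 adult library. The exact permutation test of Tef alone also gave the smallest p it can, 0.0159, which again only restates the lack of overlap. For the 8 other clock genes it gave 0.317 or more.

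The adult libraries, in which Tef was high and Cry1 low, also had more reads of erythroid and neutrophil markers. All 8 erythroid markers were called higher in adult mice, with 423 to 2556 summed CPM in juvenile and 4684 to 36911 in adult libraries. Slc4a1 was among those at 0 in at least 1 library. All 8 neutrophil markers were called higher in adult mice too, with 5.98 to 64.0 summed CPM in juvenile and 93.0 to 4324 in adult libraries. Of these markers, S100a8, Camp, Ngp, Ltf, Elane and Retnlg were at 0 in at least 1 library. Of the 10 osteoblast markers, 4 were called higher in juvenile mice (Ibsp, Sp7 and Col1a1 among them) and 2 higher in adult mice (the osteocalcin genes Bglap and Bglap2), and the list summed to 94760 to 119530 CPM in juvenile and 36693 to 58592 in adult libraries. The 10 endothelial markers gave no call, with 626 to 961 summed CPM in juvenile and 772 to 979 in adult libraries. Over all genes tested, 1.89% were called higher in adult mice and 1.99% higher in juvenile mice. The part of these cell types in the values of Tef and Cry1 was not tested.

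Arntl and Dbp are known to peak at opposite times, so their difference within a library was read as a description. On the scale of log2(normalized count + 1), Arntl minus Dbp was -2.51, -0.68, -2.25, -2.98 and -6.78 in juvenile replicates 1 to 5. In adult replicates 1 to 4 it was -3.90, -5.53, -0.54 and -4.43. Dbp exceeded Arntl in all 9 libraries, and the ages overlapped over nearly the whole range. It averaged -3.04 ± 2.26 (SD, n = 5) at 4 weeks and -3.60 ± 2.15 (SD, n = 4) at 12 weeks, so the difference of 0.56 between the ages was smaller than the spread within either. The libraries at both ends were of both ages: adult replicate 3 and juvenile replicate 2 were nearest to 0, and juvenile replicate 5 and adult replicate 2 were farthest from it. These last were the libraries with no Arntl reads, so their values, and the means and SDs that hold them, depend on the count added before the log. With a prior count of 2 they were -5.83 and -4.59. The libraries without Arntl reads were not those with the most Dbp, since adult replicate 2 had the lowest Dbp of all and juvenile replicate 5 had 109. Juvenile replicate 1 held both the highest Arntl and the highest Dbp of its age. Of the members known to peak near Dbp, the log2 fold changes were -0.69 for Tef, -0.34 for Per3, -0.14 for Per1, -0.65 for Per2 and 0.05 for Nr1d1, and those of Per1 and Nr1d1 changed sign with single libraries left out. Cry1, known to peak later and nearer to Arntl, had 1.23. The value of Arntl was -0.52 with all libraries and 1.13 without adult replicate 3, so it gave no direction to set beside that of Cry1. As the hour of killing is not given in the sources used here, its part in the spread between libraries or in the difference between the ages was not tested.

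**Figure D3:**
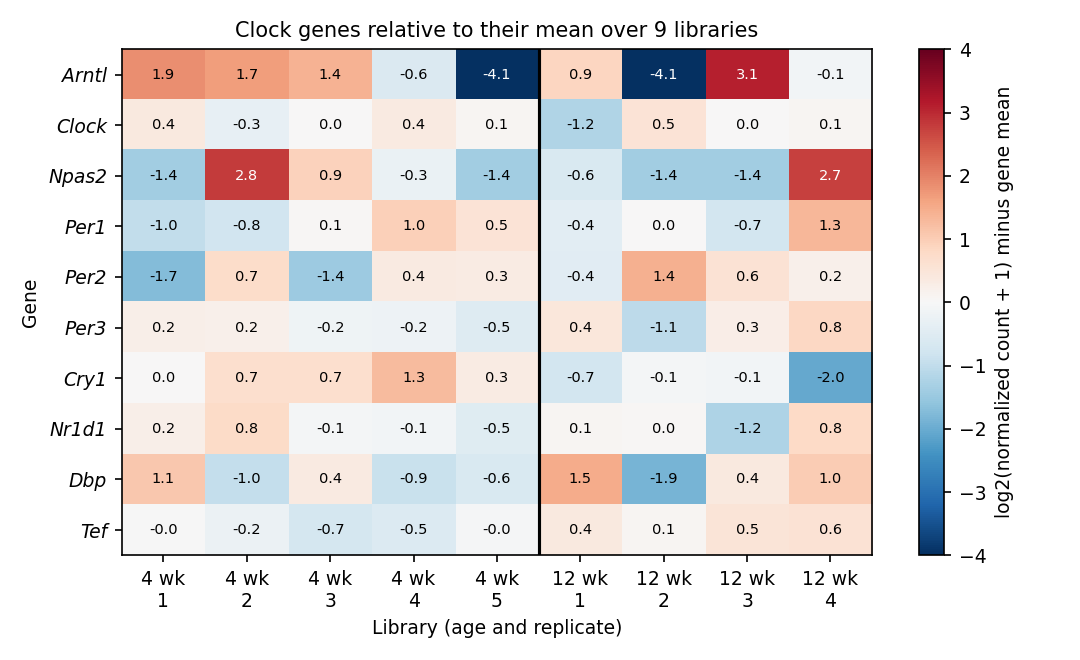
Difference of log2(normalized count + 1) from the mean of each gene over the 9 libraries (colour and printed value) for the 10 clock genes (rows) in juvenile (4 wk) and adult (12 wk) libraries (columns). Arntl runs from -4.1 to 3.1 and Tef from -0.7 to 0.6, and no row except those of Cry1 and Tef divides at the line between the ages.

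The members differed in how much libraries of the same age varied. In edgeR the biological coefficient of variation, the spread between libraries of an age beyond counting error, was 1.32 for Arntl, beside 0.963 on the trend over tested genes of its level. Dbp had 0.607 beside 0.431 and Per1 0.534 beside 0.452, so these also lay above the trend. Per3 was on the trend, with 0.369 beside 0.368. Clock, Per2, Cry1, Nr1d1 and Tef lay below their trend values, at 0.80 to 0.92 of them, with Tef the least variable clock gene (0.244). The highest adult library exceeded the lowest 10.4 times in Dbp and 1.43 times in Tef, 2 genes of the same family.

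**Figure D4:**
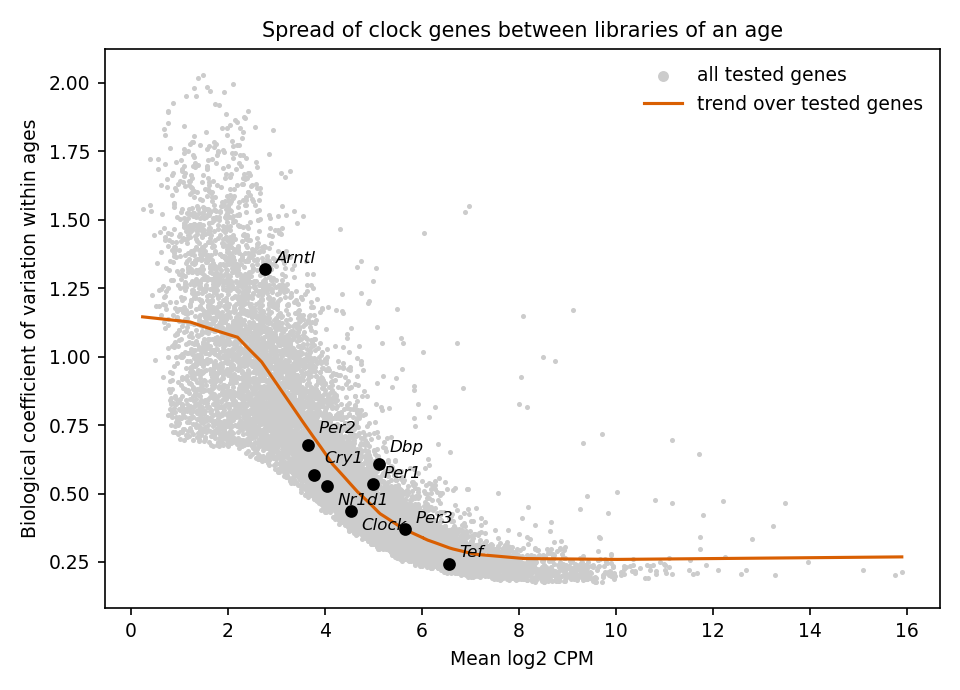
Biological coefficient of variation within ages (vertical axis) against mean log2 CPM (horizontal axis) for the 9 clock genes tested (black), all 13418 tested genes (grey) and their trend (orange line). Arntl and Dbp lie above the trend, and Tef, Cry1 and Clock lie below it.

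Levels were compared between the genes as CPM per kilobase of annotated exons. In juvenile mice the mean levels ran in the order Tef 9.35, Dbp 9.08, Cry1 5.37, Per1 5.37, Nr1d1 5.34, Per3 4.65, Clock 1.75, Per2 1.67, Arntl 0.718 and Npas2 0.149. In adult mice the order was Tef 15.1, Dbp 14.3, Per1 5.89, Per3 5.89, Nr1d1 5.16, Per2 2.63, Cry1 2.29, Clock 1.58, Arntl 1.03 and Npas2 0.143. The D-box factors Tef and Dbp stood at the head and Arntl and Npas2 at the foot of the clock genes at both ages. Neighbours in these orders mostly had ranges that met, in 17 of 18 pairs, the exception being Per3 and Clock in juvenile mice. The juvenile means of Cry1, Per1 and Nr1d1 were nearly equal, and their order depended on the length used. With the length of the longest transcript, Per3 took the third place and Cry1 the sixth in juvenile mice, and the pair with ranges apart was Cry1 and Clock.

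**Figure D5:**
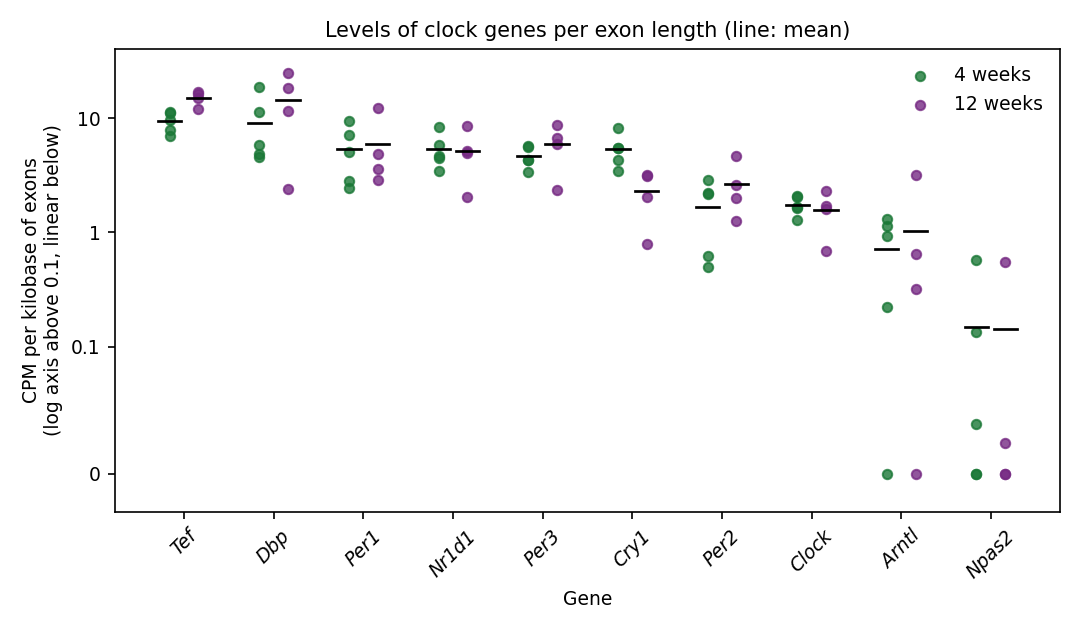
CPM per kilobase of exons (vertical axis, log scale above 0.1 and linear below) of the 10 clock genes, ordered by their mean over 9 libraries; points are libraries of juvenile (green) and adult (purple) mice and lines are means. Tef and Dbp lead, and Npas2 is at 0 in 4 libraries.

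The genes with the pattern most like Arntl and Dbp were found by the root mean square difference of centred log2 values over the 9 libraries. For Dbp these were Ankrd44 (0.33), Pnpla7 (0.48), Fahd1 (0.51), Lrrc61 (0.53) and Depdc5 (0.54). Among the clock genes Per3 was nearest to Dbp (0.72), followed by Tef (0.97) and Nr1d1 (1.19). For Arntl the nearest were Wasf1 (0.93), Zfp58 (1.33), BC037032 (1.36), Lrrc75aos2 (1.39) and Hist1h2be (1.40). These 5 genes had 0 to 1.05 normalized counts in adult replicate 2 and 0 to 7.98 in juvenile replicate 5, the libraries without Arntl reads. As they were picked for likeness to Arntl, low values in these libraries follow from the choice. Among the clock genes Dbp was nearest to Arntl (1.97), and the others lay between 2.07 and 3.004. All these distances share library depth and mixture.

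Other genes of the loop were also not called. Of 12 such genes, 9 were tested, the rest being too low, and 0 passed in either direction in edgeR or DESeq2. At an unadjusted p under 0.05 in edgeR there were 2, and the median log2 fold change was 0.31. Over all genes tested, edgeR called 3.88%, and 17.3% had an unadjusted p under 0.05. DESeq2 called 9.47% of its tested genes. The same shares stand beside the list of clock protein turnover that follows. Nr1d2, encoding REV-ERBβ, a relative of REV-ERBα, had 336 to 649 normalized counts in juvenile and 211 to 351 in adult libraries, which overlapped. Its log2 fold change was 0.76 ± 0.27 (SE, adjusted p = 0.143 in edgeR). Bhlhe41, a repressor that competes for E-boxes, had 1.14 to 23.6 normalized counts in juvenile and 21.0 to 69.2 in adult libraries, with a log2 fold change of -1.99 ± 0.88 (SE, adjusted p = 0.264 in edgeR). Cry2, the other Cryptochrome, had a log2 fold change of -0.76 ± 0.46 (SE, adjusted p = 0.445 in edgeR), opposite in sign to Cry1. Of 11 genes for kinases, ligases and other regulators of clock protein turnover, 10 were tested and 0 passed, with 0 at an unadjusted p under 0.05 and a median of 0.07. Among the smallest p-values there were those of the kinase gene Csnk1e (0.40 ± 0.26, SE, adjusted p = 0.503 in edgeR) and of Csnk2b, a subunit of casein kinase 2 (-0.21 ± 0.22, SE, adjusted p = 0.713 in edgeR).

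Of 14 genes often used as rhythmic outputs, 10 were tested and 2 were called, 1 in each direction. Over all genes tested, 3.88% were called. At an unadjusted p under 0.05 in edgeR there were 4, beside 17.3% of all genes tested. The median log2 fold change of the list was -0.44. Tsc22d3, which encodes the glucocorticoid-induced leucine zipper GILZ, was higher in adult mice. It had 319.7, 331, 427, 599 and 407 normalized counts in the juvenile and 1288, 662, 1218 and 1207 in the adult libraries. The ages did not overlap, and adult replicate 2 was again the adult library nearest to the juvenile ones. The log2 fold change was -1.39 ± 0.25 (SE, adjusted p = 0.00965 in edgeR), and it was still called when any single library was left out and without juvenile replicates 4 and 5 together (adjusted p = 0.0423). Cdkn1a, the cell cycle inhibitor p21, was higher in juvenile mice, with 1937 to 3115 normalized counts against 970.4 to 1602, and a log2 fold change of 0.86 ± 0.21 (SE, adjusted p = 0.0398 in edgeR). Its call was lost when any single library other than adult replicate 2 was left out, at adjusted p-values of 0.0508 to 0.101, and without juvenile replicates 4 and 5 together (0.0966). Nampt, the rate-limiting enzyme of NAD salvage and a direct E-box target, had 55.8 to 166 normalized counts in juvenile and 163 to 468 in adult libraries, with a log2 fold change of -1.52 ± 0.40 (SE, adjusted p = 0.0538 in edgeR), just outside the threshold. DESeq2 called 5 of the list, beside 9.47% of its tested genes.

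Glucocorticoids, body temperature and handling can shift clock genes, so lists of their target genes were read in the same way. Of 12 glucocorticoid-responsive genes, 10 were tested and 3 called, with 2 higher in juvenile mice (Pdk4 and Cdkn1a), 1 higher in adult mice (Tsc22d3) and a median of -0.03. At an unadjusted p under 0.05 in edgeR there were 4, and DESeq2 called 5. Over all genes tested, edgeR called 3.88%, and 17.3% had an unadjusted p under 0.05. DESeq2 called 9.47% of its tested genes. These shares also stand beside the 2 lists that follow. Tsc22d3 and Cdkn1a belong to this list and to the output list. Pdk4, the kinase that restrains pyruvate oxidation, had 366 to 594 normalized counts in juvenile and 103 to 271 in adult libraries, with a log2 fold change of 1.297 ± 0.315 (SE, adjusted p = 0.0392 in edgeR). Its call held without adult replicate 3 (0.0473) or adult replicate 4 (0.0365). It was lost when any other single library was left out, at adjusted p-values of 0.0614 to 0.107 in edgeR, and without juvenile replicates 4 and 5 together (0.220). Of 10 temperature-responsive genes, 8 were tested and 0 called in edgeR, with 3 at an unadjusted p under 0.05, 2 called by DESeq2 and a median of -0.29. Hspb1, a small heat shock protein gene, had 0 to 13.3 normalized counts in juvenile and 12.6 to 271 in adult libraries (adjusted p = 0.0552 in edgeR). The chaperone gene Hsp90aa1 had a log2 fold change of -0.45 ± 0.17 (SE, adjusted p = 0.170 in edgeR) and the cold-inducible Rbm3 of 0.58 ± 0.25 (SE, adjusted p = 0.233 in edgeR). Of 12 immediate-early genes, 9 were tested and 0 called in edgeR, with 1 at an unadjusted p under 0.05, 1 called by DESeq2 and a median of 0.26. Fos, a component of AP-1, had 20.03 to 289 normalized counts in juvenile and 165 to 744 in adult libraries, with a log2 fold change of -1.78 ± 0.61 (SE, adjusted p = 0.134 in edgeR). Klf4 (0.60 ± 0.36, adjusted p = 0.442 in edgeR) and Atf3 (2.22 ± 1.68, adjusted p = 0.580 in edgeR) had the next smallest p-values.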

How the data were processed

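RNA of the 9 samples was amplified with the SMART-Seq v4 kit, made into libraries with Nextera XT and sequenced as 75 bp paired-end reads. The authors mapped them to mm10 (TopHat2, Bowtie2, defaults) and deposited raw counts per Ensembl gene. The submitters' processing notes name featureCounts and GRCm38. Its strand setting and the annotation release are not given in the sources used here. Poly-A priming and amplification of little RNA can leave a low gene without reads in a library.

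Symbols, positions and exon lengths came from GENCODE M21 (GRCm38), which held 96.0% of the identifiers. Counts were kept by filterByExpr, scaled by TMM and tested with edgeR 4.0.16 under R 4.3.3 (estimateDisp, glmQLFit, glmQLFTest). Normalized counts refer to an effective size of 6276360 counts. Log2 values of single genes used a pseudocount of 1, and the two-sided exact permutation test compared their means with scipy 1.17.1. Intervals of 95% used the standard error and degrees of freedom of the fit. The labels only number the libraries, and each was taken as 1 mouse. The p-values measure the spread between libraries, which holds differences in dissection, cell mixture and amplification as well as between mice. No 2 libraries agreed within sampling noise in a chi-square test of their counts. The fits were tested on simulated data.

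Alternatives were other scalings, DESeq2 1.42.0, limma 3.58.1 voom, other filters, the replicate number as a block, thinned counts, 7 libraries, and each library left out.

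The members and lists were chosen with earlier results of these data known. Named are all 10 members, every called gene of the 6 other lists and, where fewer than 3 were called, those with the smallest p up to 3, and the 5 genes most like Arntl and Dbp. A few genes of these lists are counted but not reported here by name.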

Additional observations from a re-analysis of the deposited data

Results flagged for a closer look

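In 4 of 52 groups of libraries examined (26 named genes at 2 ages), 1 library stood apart from the others of its age by more than Dixon's 95% critical value, where chance gives about 1 in 20. Npas2 had 17.2 normalized counts in juvenile replicate 2, against 0 to 4.01 in the other juvenile libraries, and 16.5 in adult replicate 4, against 0 to 0.725. Tsc22d3 had 662 normalized counts in adult replicate 2, against 1207 to 1288 in the other adult libraries, and that library was also apart in its neutrophil and chondrocyte markers. Hspb1 had 13.3 normalized counts in juvenile replicate 5, against 0 to 3.62.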

How the results depend on the processing

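Of 170 refitted fold changes of the 9 tested clock genes, 159 kept their sign and side of the threshold, 10 turned their sign and 1 was newly called. The sign of Arntl turned with voom (0.20), with the replicate block (0.68), without juvenile replicates 4 and 5, which leaves 7 libraries (0.12), and over the libraries left out (-0.95 to 1.13). Leaving out libraries moved Clock from -0.12 to 0.37, Per1 from -0.44 to 0.49 and Nr1d1 from -0.23 to 0.38. Tef was called by DESeq2 (-0.71), which made the number of clock genes called 1 in place of 0. DESeq2 called 1490 genes in all, the replicate block 89 and the 7 libraries 73, and leaving out 1 library gave 262 to 651. Among other clock genes, 2 were called in the main test, 5 by DESeq2, 1 by voom, 0 with the replicate block, 1 in the 7 libraries and 1 to 2 without single libraries. The causes were not tested. Deviations from the age means over tested genes correlated at -0.03 to 0.03 between libraries of the same number, so a shared number marked no pair. With the replicate block Tsc22d3 had an adjusted p of 0.0540 in edgeR. Npas2 has no value here because it failed the filter. Log2 CPM with a prior count of 2 gave 0.52 for the age difference of Arntl minus Dbp, and the longest transcript's length left 17 overlapping neighbours, in another order. Counts thinned to the smallest total gave -0.59 for Arntl, and counts of 0 bound its level in 2 libraries.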
